A study of Mus musculus with 65 samples.

Results

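The 10 genes followed here govern the passage of neural stem cells from the G1 phase of the cell cycle into S phase: the D cyclins Ccnd1, Ccnd2 and Ccnd3, their kinases Cdk4 and Cdk6, the E cyclins Ccne1 and Ccne2, their kinase Cdk2, the retinoblastoma gene Rb1 and the transcription factor gene E2f1. They were picked by name, with symbols matched to Ensembl identifiers through the GENCODE mouse annotation (mm10), and all 10 were found among the 31057 features of the count table. Each was counted in every one of the 65 libraries, with no fewer than 56 counts in any, and all 10 passed the filter on low counts in every comparison.

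The libraries hold mRNA of primary neural stem cells (NSCs) from the subventricular zone, the adult brain's germinal zone along the lateral ventricle, of mice that all carry iOSKM, a cassette that expresses Oct4, Sox2, Klf4 and Myc when doxycycline is given. Old mice were 25 months of age (4 animals) and young mice 3-4 months (5 animals), both sexes in each age, and each animal gave 1 library to each group of its age. The differentiation groups, in medium without the growth factors EGF and bFGF, were old cells with doxycycline, old untreated cells and young untreated cells at 6, 18 and 48 h. The groups in NSC medium (Neurobasal-A, B27, EGF and bFGF) were old cells with doxycycline at 6, 18 and 48 h, young cells with doxycycline at 18 h, and old and young untreated cells at 18 h. Doxycycline was used at 2 µg/ml. EGF and bFGF were taken away 18 h after plating, and the labels do not say from which event the hours of the groups are counted. There was no untreated NSC group at 6 or 48 h, so untreated cells at 6 h of differentiation are set against untreated cells at 18 h in NSC medium.

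All 10 are protein-coding genes and are placed here by mm10 coordinates of the whole gene. The D cyclins lie apart, Ccnd1 (ENSMUSG00000070348) at chr7:144929931-144939925 on the minus strand, Ccnd2 (ENSMUSG00000000184) at chr6:127125162-127152193 on the minus strand and Ccnd3 (ENSMUSG00000034165) at chr17:47505051-47599691 on the plus strand. Their kinases are Cdk4 (ENSMUSG00000006728) at chr10:127063534-127067920 on the plus strand and Cdk6 (ENSMUSG00000040274) at chr5:3341485-3531008 on the plus strand. The E cyclins are Ccne1 (ENSMUSG00000002068) at chr7:38097984-38107534 on the minus strand and Ccne2 (ENSMUSG00000028212) at chr4:11191351-11204779 on the plus strand, and their kinase is Cdk2 (ENSMUSG00000025358) at chr10:128697939-128705031 on the minus strand. The last pair is Rb1 (ENSMUSG00000022105) at chr14:73183673-73325822 on the minus strand and E2f1 (ENSMUSG00000027490) at chr2:154559407-154569892 on the minus strand.

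By way of background, mitogens such as EGF and bFGF raise D cyclins, which bind Cdk4 or Cdk6 and begin to phosphorylate the retinoblastoma protein. Phosphorylated retinoblastoma protein releases E2F factors, which turn on the genes of DNA replication and the E cyclins, and cyclin E with Cdk2 then completes the phosphorylation. In neural progenitors Ccnd1 and Ccnd2 are the best studied D cyclins, and adult neurogenesis in the mouse depends on Ccnd2. Withdrawal of growth factors is a standard way to make cultured NSCs leave the cycle and differentiate.

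Promoter windows from RefSeq (GRCm38.p6), the 250 bases before the RefSeq start, were matched for 6 of the 10 genes, namely Ccnd3, Cdk4, Cdk6, Ccne1, Cdk2 and E2f1. The windows of Cdk4, Ccne1 and Cdk2 are printed 5′ to 3′ on the gene's own strand, because Cdk4 stayed within a narrow range in all groups while Ccne1 and Cdk2 were lower at 18 h of differentiation than at 18 h in NSC medium. Capitals mark CACGTG, an E-box, and GCGGGAA, the reverse complement of the E2F core word TTCCCGC. The windows lie at chr10:127063285-127063534 on the plus strand for Cdk4, chr7:38107491-38107740 on the minus strand for Ccne1 and chr10:128705052-128705301 on the minus strand for Cdk2.
Cdk4: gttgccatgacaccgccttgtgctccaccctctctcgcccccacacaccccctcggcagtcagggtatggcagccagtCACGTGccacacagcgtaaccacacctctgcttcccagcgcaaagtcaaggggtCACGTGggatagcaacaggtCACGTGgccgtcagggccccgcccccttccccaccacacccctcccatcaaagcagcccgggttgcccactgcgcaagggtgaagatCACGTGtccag
Ccne1: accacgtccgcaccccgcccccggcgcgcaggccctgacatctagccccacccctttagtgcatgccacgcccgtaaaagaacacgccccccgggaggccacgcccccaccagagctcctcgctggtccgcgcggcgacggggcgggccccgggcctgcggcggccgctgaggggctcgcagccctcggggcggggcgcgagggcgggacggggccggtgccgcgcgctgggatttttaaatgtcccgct
Cdk2: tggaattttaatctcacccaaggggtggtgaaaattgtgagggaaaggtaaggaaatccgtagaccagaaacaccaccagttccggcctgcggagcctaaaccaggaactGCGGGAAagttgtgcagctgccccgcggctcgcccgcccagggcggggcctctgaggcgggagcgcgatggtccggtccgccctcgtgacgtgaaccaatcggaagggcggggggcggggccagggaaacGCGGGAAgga

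Cdk4 held 4 copies of CACGTG, with first bases 172, 118, 98 and 11 bases before the start, and 6.02% of 32851 RefSeq promoter windows of the same length held at least 1 copy on either strand. Cdk2 held the E2F core word at 140 and 10 bases before the start, and 7.89% of the windows held at least 1 of the core words TTCGCGC or TTGGCGC or TTCCCGC or TTGCCGC on either strand. The copy at 140 bases also matched the longer word TTTCCCGC, which overlaps the core word. That word or TTTCGCGC or TTTGGCGC or TTTGCCGC was in 1.86% of windows. The Ccne1 window held none of these words in these letters. Of the windows not printed, that of Cdk6 held CACGTG 220 bases before the start and no E2F core word. The 2 windows of Ccnd3 and that of E2f1 held none of these words. The RefSeq start lay 466 bases inside the GENCODE gene for E2f1 and 2408 bases inside for Cdk6. For the second start of Ccnd3 it lay 88416 bases inside. These windows lie within the annotated gene, and the bases before the GENCODE start of E2f1 and Cdk6 were not searched.

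Levels are given as CPM, counts relative to the library's total after TMM scaling over all libraries, and genes are compared with each other only per kilobase (kb) of exon. Ccnd1 was the most abundant of the 10 in untreated NSCs, with 669.8 ± 51.6 CPM per kb in old and 741 ± 35.0 CPM per kb in young cells (SD, n = 4 and 5). Ccnd2 followed with 229.6 ± 15.7 and 285 ± 24.6, and Cdk4 with 161 ± 4.29 and 152 ± 2.12 CPM per kb. Cdk6 was the lowest at 1.09 ± 0.155 and 1.36 ± 0.192 CPM per kb. The other 6 genes lay between the means of E2f1 in young cells (8.11 ± 0.58 CPM per kb) and Ccne1 in old cells (16.7 ± 1.04 CPM per kb). By 48 h of differentiation the order was another: Cdk4 led at 112 ± 2.64 and 110.3 ± 6.64, and Rb1 was second at 16.65 ± 0.235 and 17.55 ± 0.778 CPM per kb in old and young cells. Over the 15 group means, in CPM, the highest was 110 times the lowest for Ccnd1, 33.3 times for Ccnd2 and 26.0 times for E2f1. It was 10.1 times for Ccne1, 8.23 times for Ccne2, 7.88 times for Cdk6 and 3.87 times for Cdk2. Ccnd3 spanned 2.27 times, Rb1 1.97 times and Cdk4 1.54 times.

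**Figure D1:**
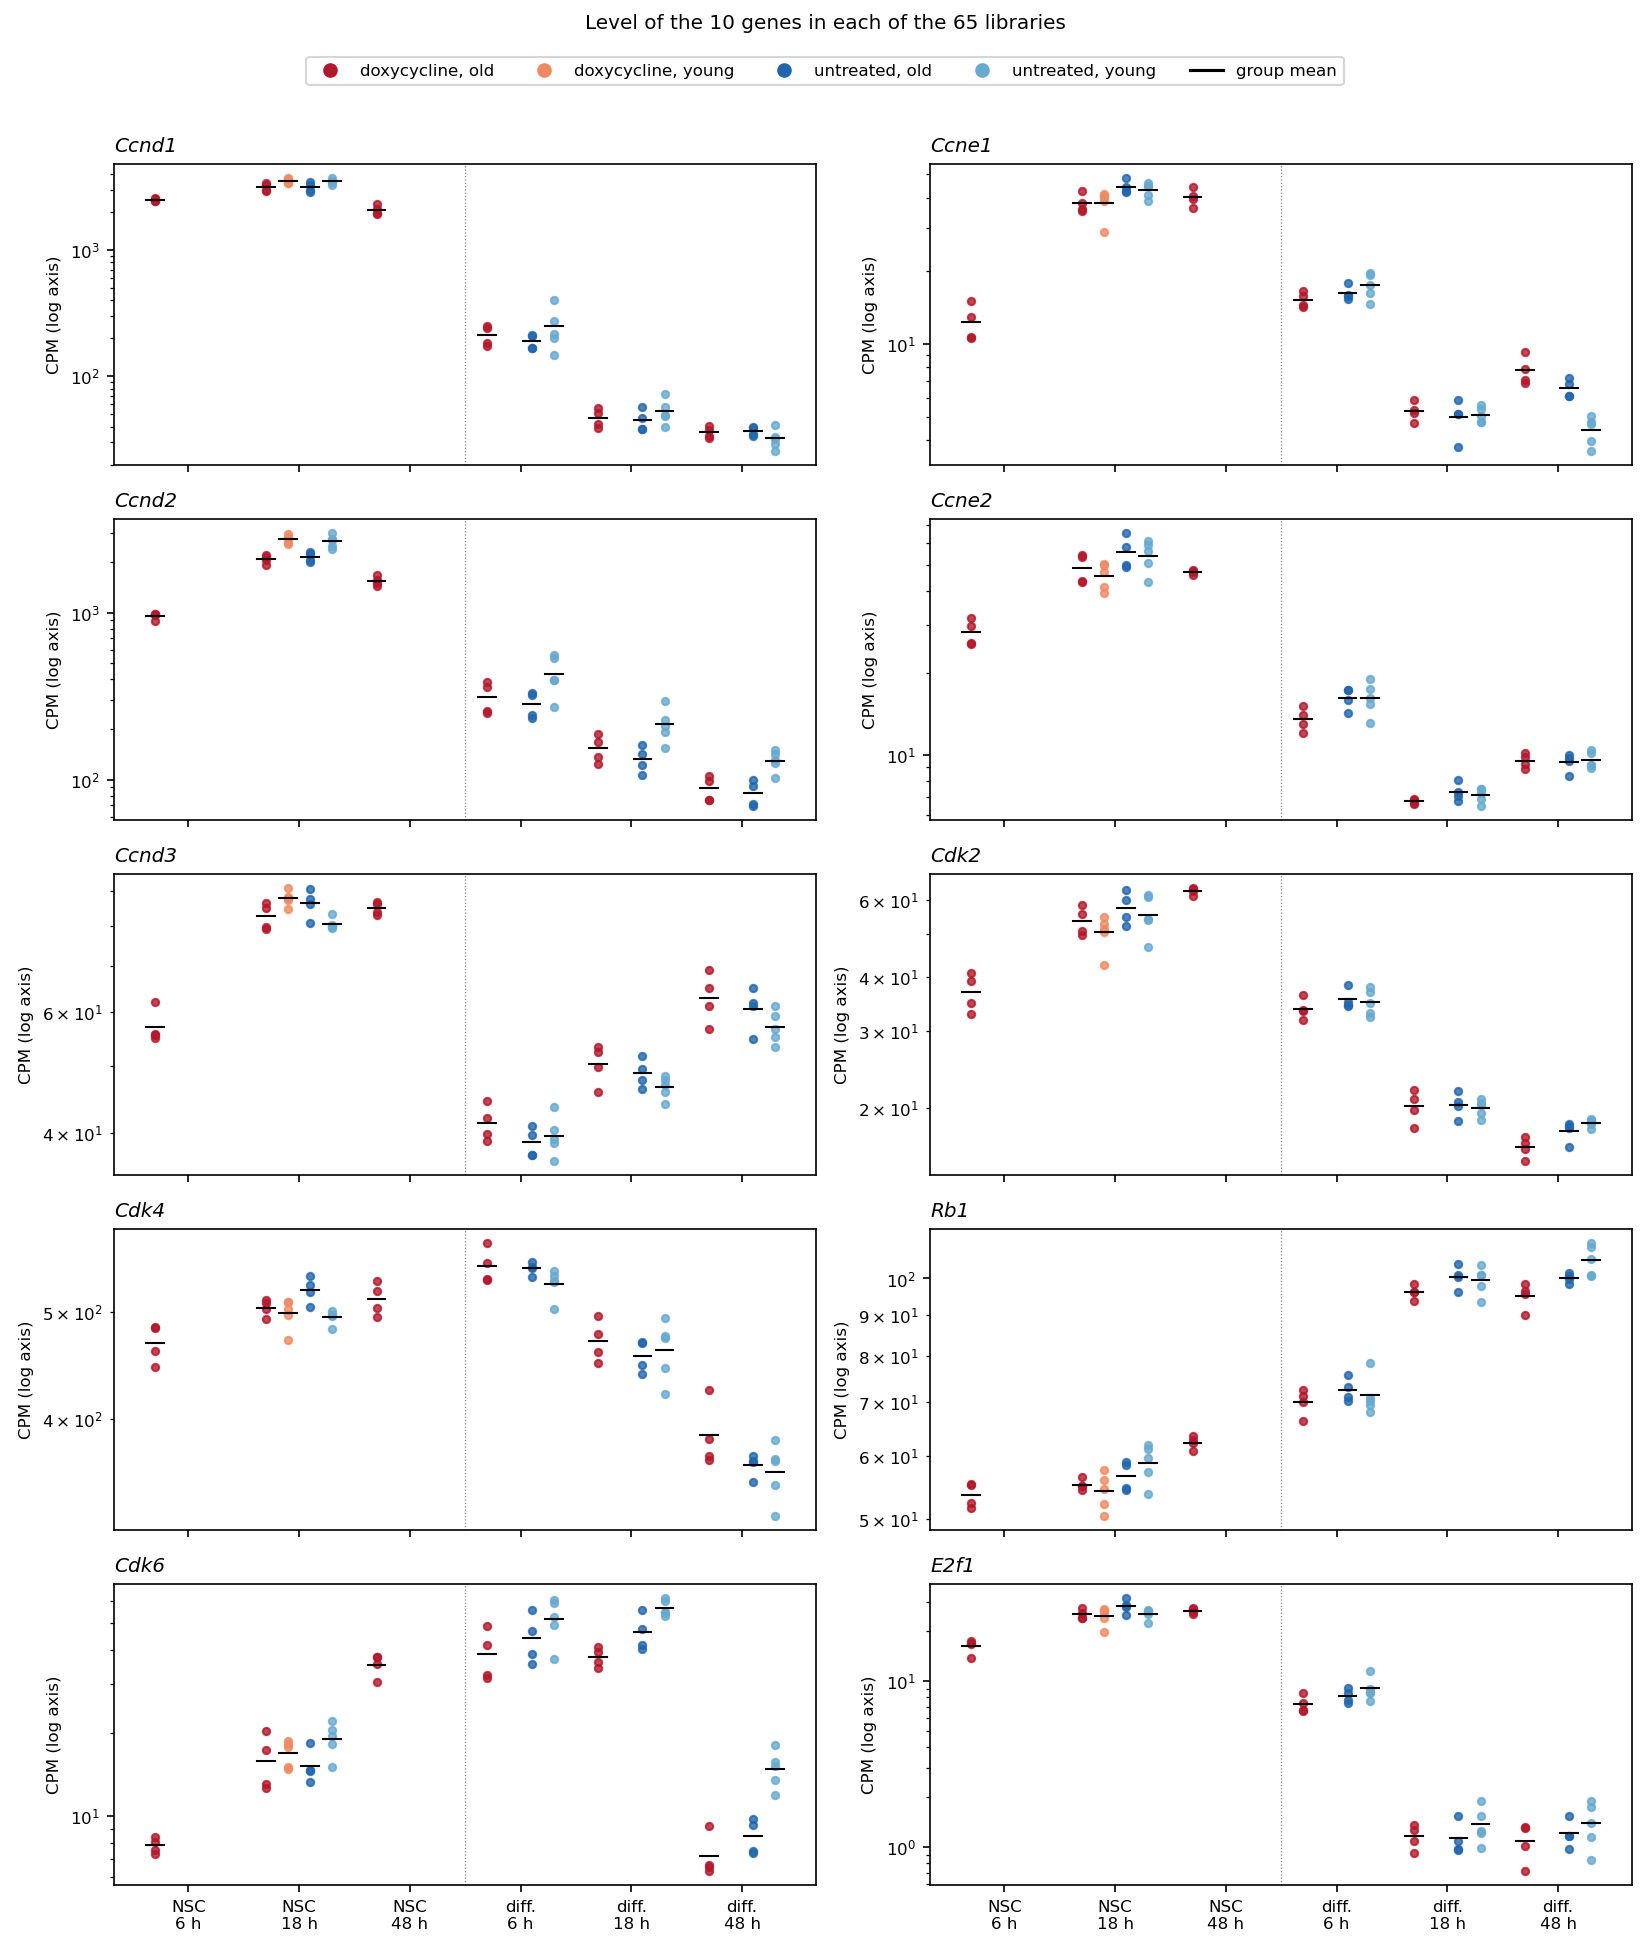
Level of each of the 10 genes (CPM, log axis) in all 65 libraries, by stage in NSC medium and in differentiation; 1 point is 1 library, colours give age and doxycycline, and black bars are group means. Ccnd1 and Ccnd2 drop by 6 h of differentiation, Rb1 climbs, Cdk4 stays within 1.54 times over the group means, and Cdk6 is high at 6 and 18 h of differentiation and low at 48 h.

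Library totals ran between 56.5 and 116.8 M counts (median 86.7 M), and no pair of libraries had identical counts. Pou5f1, which encodes Oct4, was at most 1.39 CPM, and in 21 of 21 within-animal pairs the doxycycline library had the higher value. Markers of several cell types moved with differentiation, as sums over 10 genes each in untreated libraries of both ages. Neural stem cell and astrocyte markers summed to 6077 to 7152 CPM in NSC medium, then 5332 to 6351, 8333 to 9676 and 9337 to 11331 CPM at 6, 18 and 48 h of differentiation. Neuroblast and neuron markers summed to 1147 to 1304 CPM in NSC medium, then 1191 to 1424, 1782 to 2040 and 1308 to 1627 CPM. Oligodendrocyte lineage markers summed to 2447 to 2966 CPM in NSC medium and 3081 to 3950 CPM at 6 h, with 8 of 9 tested higher and 1 lower in old and 8 higher and 0 lower in young cells, then to 3356 to 3853 CPM at 18 h and 3894 to 6529 CPM at 48 h. Microglia and blood markers summed to 27.6 to 67.6 CPM over all libraries, with C1qb at 0 in all libraries of most groups.

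The share of counts on features that overlap ribosomal RNA moved as well. In old untreated libraries it was 0.559 to 1.645% in NSC medium, 0.936 to 1.925% at 6 h, 2.21 to 3.13% at 18 h and 2.44 to 3.53% at 48 h, and in young ones 1.51 to 1.88%, 0.683 to 2.04%, 1.12 to 2.955% and 2.12 to 2.91%. The mitochondrial share was 1.16 to 1.47% in old untreated NSC medium libraries, then 1.43 to 1.56%, 1.69 to 1.88% and 1.81 to 2.03%. In young ones it was 1.26 to 1.57%, then 1.34 to 1.815%, 1.49 to 2.12% and 1.92 to 2.34%. The part of these markers and shares in the changes of the 10 genes described next was not tested.

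The first question is what differentiation medium did to untreated cells. All 3 D cyclins fell by 6 h, Ccnd1 most, and then parted: Ccnd1 and Ccnd2 went on falling while Ccnd3 came partly back. The step at 6 h sets 6 h of differentiation against 18 h in NSC medium, and in old doxycycline cells, which also have NSC medium at 6 h, the sizes against that hour were other. There Ccnd1 was 11.8-fold, Ccnd2 3.05-fold and Ccnd3 1.38-fold lower in differentiation, all called, beside 16.7-fold, 7.66-fold and 2.23-fold in old untreated cells against 18 h. Within NSC medium all 3 were higher at 18 than at 6 h, Ccnd2 by 2.19-fold. All 10 genes were called in both ages at 6 h (edgeR's quasi-likelihood test, Benjamini-Hochberg adjusted p under 0.05), 3 higher and 7 lower. Of all genes tested, 75.5% were called in old cells (38.2% higher and 37.4% lower) and 74.9% in young cells (38.4% higher and 36.5% lower). With backgrounds that high a call by itself says little, and the sizes of the changes carry the description. These are bulk libraries, in which fewer cells in the cycle and less RNA per cell cannot be told apart.

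Ccnd1, the D cyclin of mitogen-driven entry into the cycle, stood at 3428, 2902, 3281 and 3005 CPM in the 4 old untreated libraries at 18 h in NSC medium and 209, 167, 212 and 168 CPM at 6 h of differentiation. By 18 h Ccnd1 stood at 57.5, 38.2, 47.1 and 38.2 CPM in old cells, and by 48 h at 40.0, 33.9, 39.1 and 35.1 CPM. Old libraries did not overlap between stages up to 18 h, and those at 48 h overlapped those at 18 h. Ccnd1 in young untreated cells stood at 3539, 3427, 3471, 3284 and 3734 CPM in NSC medium and 215.5, 199, 404, 148 and 276 CPM at 6 h. At 18 h Ccnd1 was at 48.8, 49.5, 71.7, 40.0 and 57.3 CPM in young cells, and at 48 h at 31.97, 29.0, 41.0, 25.6 and 33.3 CPM. The young libraries separated in the same way, with overlap between 18 and 48 h. By 6 h Ccnd1 was 16.7-fold lower in old cells (log2 fold change -4.03, SE 0.11, edgeR adjusted p = 8.96e-10) and 14.0-fold lower in young cells (log2 fold change -3.78, SE 0.25, edgeR adjusted p = 1.86e-07). It fell again by 18 h, with log2 fold changes of -2.07 (SE 0.16) in old and -2.22 (SE 0.29) in young cells. From 18 to 48 h the fall was called in young cells (log2 fold change -0.75, SE 0.18, edgeR adjusted p = 0.00485). It was not called in old cells (log2 fold change -0.30, SE 0.14, edgeR adjusted p = 0.0977), where it was called with animals as blocks (edgeR adjusted p = 0.00143), being lower at 48 h in 4 of 4 old animals.

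Ccnd2, the D cyclin on which adult neurogenesis depends, stood at 2320, 2077, 2245 and 2000 CPM in old untreated cells in NSC medium and 319.9, 235, 330.2 and 242 CPM at 6 h of differentiation. By 18 h Ccnd2 stood at 161, 122, 143 and 107 CPM in old cells, and by 48 h at 99.3, 71.6, 90.9 and 69.3 CPM. The old libraries of each stage lay wholly below those of the stage before. Ccnd2 in young untreated cells stood at 2718, 2764, 2515, 2411 and 3006 CPM in NSC medium and 392, 395, 555, 270.2 and 538 CPM at 6 h. At 18 h Ccnd2 was at 191, 209.5, 294, 154.5 and 228 CPM in young cells, and at 48 h at 130.5, 126, 150, 102 and 141 CPM. Each step was downwards in all 9 animals, though young libraries at 18 h overlapped those at 6 h (294 CPM in young animal 3 at 18 h and 270.2 CPM in young animal 4 at 6 h). The first step was a log2 fold change of -2.91 (SE 0.13, edgeR adjusted p = 9.85e-08) in old and -2.61 (SE 0.18, edgeR adjusted p = 1.23e-07) in young cells. The next 2 steps were called as well, at -1.08 and -0.70 on the log2 scale in old cells, the last of them lost without old animal 2 (edgeR adjusted p = 0.0578). In young cells they were 1.995-fold and 1.66-fold lower, both called.

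Ccnd3, the D cyclin expressed most widely in differentiated tissues, had a dip and a partial return. It stood at 86.1, 90.6, 87.6 and 80.9 CPM in old untreated cells in NSC medium and 39.8, 37.2, 40.9 and 37.2 CPM at 6 h of differentiation. By 18 h Ccnd3 stood at 49.6, 46.3, 51.8 and 47.7 CPM in old cells, and by 48 h at 65, 61.1, 61.75 and 54.7 CPM. The old libraries dipped at 6 h and stood higher at each later stage, with no overlap. Ccnd3 in young untreated cells stood at 80.2, 83.1, 79.8, 79.5 and 79.95 CPM in NSC medium and 40.4, 38.7, 43.6, 36.4 and 39.2 CPM at 6 h. At 18 h Ccnd3 was at 47.8, 48.5, 46.9, 45.9 and 44.0 CPM in young cells, and at 48 h at 56.7, 61.1, 59.15, 53.3 and 55.1 CPM. No neighbouring stages overlapped in young cells either. The log2 fold change was -1.13 in old and -0.99 in young cells at 6 h (edgeR adjusted p = 8.08e-10 and 3.10e-10), then 0.33 and 0.23 by 18 h, then 0.30 and 0.27 by 48 h, all called.

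The 2 kinases of the D cyclins followed different courses. Cdk4 moved little: it stood at 506, 539, 529 and 522 CPM in old untreated cells in NSC medium and 549, 539, 550 and 555 CPM at 6 h of differentiation. By 18 h Cdk4 stood at 470.1, 439.7, 448 and 469.5 CPM in old cells, and by 48 h at 370.4, 366, 366.5 and 351 CPM. Old libraries at 6 h overlapped those in NSC medium, and each later stage lay below the one before. Cdk4 in young untreated cells stood at 483, 501, 497, 497 and 498 CPM in NSC medium and 539, 533, 534, 545 and 504 CPM at 6 h. At 18 h Cdk4 was at 476, 494, 445, 474 and 421 CPM in young cells, and at 48 h at 367, 383, 368, 326.5 and 348.5 CPM. Its small rise at 6 h was called in old (log2 fold change 0.09, SE 0.03, edgeR adjusted p = 0.0237) and young cells (log2 fold change 0.13, SE 0.04, edgeR adjusted p = 0.00458), the old libraries overlapping and 3 of 4 old animals being higher. The old call was lost without old animal 1, 3 or 4 (edgeR adjusted p = 0.14, 0.0686 and 0.0777) and without the filter on low counts (0.0695). Its fall by 18 h (-0.26 in old and -0.20 in young cells on the log2 scale) and again by 48 h (-0.34 and -0.39) was called in both ages.

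Cdk6, in contrast, rose while the cyclins fell. It stood at 13.3, 18.3, 14.5 and 14.7 CPM in old untreated cells in NSC medium and 35.4, 55.5, 38.5 and 46.7 CPM at 6 h of differentiation. By 18 h Cdk6 stood at 40.4, 55.6, 41.8 and 47.4 CPM in old cells, and by 48 h at 9.31, 9.78, 7.33 and 7.48 CPM. The old libraries at 6 and 18 h overlapped each other and lay above both NSC medium and 48 h. Cdk6 in young untreated cells stood at 18.2, 22.1, 19.5, 20.5 and 15 CPM in NSC medium and 52.7, 59.0, 37.0, 60.7 and 49.2 CPM at 6 h. At 18 h Cdk6 was at 54.8, 52.9, 61.6, 54.5 and 59.9 CPM in young cells, and at 48 h at 15.2, 13.5, 18.0, 11.9 and 15.7 CPM. All libraries at 6 h lay above those in NSC medium (log2 fold change 1.56, SE 0.16, edgeR adjusted p = 2.04e-05 in old cells; log2 fold change 1.48, SE 0.14, edgeR adjusted p = 2.10e-06 in young cells). Those at 18 h overlapped those at 6 h with no call in either age. By 48 h every library was below every library at 18 h, with a log2 fold change of -2.46 (SE 0.13, edgeR adjusted p = 4.44e-07) in old and -1.95 (SE 0.10, edgeR adjusted p = 3.67e-08) in young cells. Cdk6 at 48 h was also below its NSC medium level in old libraries, which did not overlap, whereas young libraries overlapped; this last pair of stages was not tested.

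Both E cyclins and Cdk2, the kinase they activate at the entry into S phase, were lower at 6 h of differentiation than at 18 h in NSC medium, and lower again by 18 h. Against NSC medium at 6 h, in old doxycycline cells, the first step was another for 2 of them: Ccne1 was higher (0.34 on the log2 scale, edgeR adjusted p = 0.0106), Cdk2 was not called (-0.09, edgeR adjusted p = 0.248) and Ccne2 was 2.08-fold lower. Ccne1 stood at 42.4, 48.5, 42.8 and 44.3 CPM in old untreated cells in NSC medium and 17.9, 15.7, 15.2 and 15.9 CPM at 6 h of differentiation. By 18 h Ccne1 stood at 5.89, 3.76, 5.13 and 5.11 CPM in old cells, and by 48 h at 6.07, 6.825, 7.24 and 6.11 CPM. Old libraries were clear of the stage before at both early steps and stood higher again at 48 h. Ccne1 in young untreated cells stood at 44.7, 44.9, 46.2, 41.0 and 38.9 CPM in NSC medium and 17.5, 16.2, 19.6, 14.6 and 19.2 CPM at 6 h. At 18 h Ccne1 was at 4.76, 5.38, 5.02, 4.75 and 5.58 CPM in young cells, and at 48 h at 3.965, 4.74, 4.68, 3.61 and 5.05 CPM. In young cells the first 2 steps left no overlap, and the libraries at 48 h overlapped those at 18 h. At 6 h the change was -1.43 (SE 0.06, edgeR adjusted p = 1.01e-09) in old and -1.27 (SE 0.08, edgeR adjusted p = 5.70e-09) in young cells on the log2 scale, and the next step by 18 h was -1.70 and -1.78. From 18 to 48 h Ccne1 rose in old cells (log2 fold change 0.39, SE 0.12, edgeR adjusted p = 0.012), while in young cells its log2 fold change was -0.23 (edgeR adjusted p = 0.0652), called lower with animals as blocks (edgeR adjusted p = 0.0123). The old call was lost without old animal 2 or 3 (edgeR adjusted p = 0.0639 and 0.0549).

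Ccne2 stood at 49.1, 65.5, 49.9 and 58.0 CPM in old untreated cells in NSC medium and 15.9, 14.3, 17.3 and 17.3 CPM at 6 h of differentiation. By 18 h Ccne2 stood at 7.3, 6.77, 8.08 and 7.07 CPM in old cells, and by 48 h at 9.52, 9.73, 9.96 and 8.37 CPM. In old cells the libraries at 18 h were the lowest of the 4 stages, with no overlap. Ccne2 in young untreated cells stood at 56.0, 59.0, 60.9, 50.8 and 43.3 CPM in NSC medium and 16.15, 15.4, 19.0, 13.1 and 17.5 CPM at 6 h. At 18 h Ccne2 was at 6.48, 7.245, 7.52, 6.88 and 7.49 CPM in young cells, and at 48 h at 9.14, 10.2, 10.4, 8.925 and 9.165 CPM. The young libraries too were lowest at 18 h, with no overlap. The 3 steps of Ccne2 were -1.75, -1.15 and 0.35 in old and -1.70, -1.19 and 0.41 in young cells on the log2 scale, all called.

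Cdk2 stood at 54.9, 63.2, 52.3 and 60.0 CPM in old untreated cells in NSC medium and 35.0, 34.3, 38.25 and 34.4 CPM at 6 h of differentiation. By 18 h Cdk2 stood at 21.9, 18.7, 20.6 and 20.2 CPM in old cells, and by 48 h at 18.4, 18.0, 16.3 and 18.2 CPM. Each later stage of the old libraries lay below the stage before, with no overlap. Cdk2 in young untreated cells stood at 53.9, 54.2, 61.5, 61.0 and 46.9 CPM in NSC medium and 34.9, 37.0, 37.9, 32.4 and 33.0 CPM at 6 h. At 18 h Cdk2 was at 18.8, 19.45, 20.5, 20.9 and 20.3 CPM in young cells, and at 48 h at 18.8, 18.4, 17.9, 18.6 and 18.9 CPM. Cdk2 had log2 fold changes smaller in size than those of its cyclins at each of the first 2 steps, at -0.67 and -0.80 in old and -0.63 and -0.81 in young cells. The last step was small and called in both ages (-0.21 in old, edgeR adjusted p = 0.00613; -0.13 in young cells, edgeR adjusted p = 0.0246), though young libraries overlapped. The young call was lost without the filter on low counts (edgeR adjusted p = 0.055), in limma on the deposited transformed values (0.0547) and without young animal 2, 3, 4 or 5 (edgeR adjusted p = 0.0508 to 0.105).

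Rb1 and E2f1, the brake and the factor it holds, went opposite ways. Rb1 stood at 54.3, 59.0, 54.7 and 58.5 CPM in old untreated cells in NSC medium and 70.25, 73.2, 71.1 and 75.75 CPM at 6 h of differentiation. By 18 h Rb1 stood at 96.2, 101, 100.5 and 104.3 CPM in old cells, and by 48 h at 101, 99.9, 98.35 and 102 CPM. Old libraries stood higher, with no overlap, at both early steps and overlapped between 18 and 48 h. Rb1 in young untreated cells stood at 61.9, 59.6, 61.1, 57.2 and 53.7 CPM in NSC medium and 70.9, 69.5, 68.1, 70.2 and 78.4 CPM at 6 h. At 18 h Rb1 was at 101, 97.8, 93.4, 104.1 and 101 CPM in young cells, and at 48 h at 109.5, 101, 101, 111 and 106 CPM. It rose by 6 h (0.39 in old, edgeR adjusted p = 2.46e-06; 0.32 in young cells, edgeR adjusted p = 6.75e-05) and again by 18 h (0.47 and 0.47 on the log2 scale), with no overlap between neighbouring stages. From 18 to 48 h it was not called, and with animals as blocks the young cells gave a rise of 0.07 (edgeR adjusted p = 0.0379).

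E2f1 stood at 27.8, 28.7, 25.1 and 31.8 CPM in old untreated cells in NSC medium and 9.15, 7.42, 7.68 and 8.51 CPM at 6 h of differentiation. By 18 h E2f1 stood at 1.535, 1.09, 0.967 and 0.977 CPM in old cells, and by 48 h at 1.18, 1.545, 1.17 and 0.970 CPM. In old cells both early steps left no overlap, and the libraries at 18 and 48 h overlapped. E2f1 in young untreated cells stood at 26.6, 25.5, 26.6, 26.8 and 22.4 CPM in NSC medium and 8.64, 8.44, 11.6, 7.61 and 8.95 CPM at 6 h. At 18 h E2f1 was at 1.22, 1.25, 1.89, 0.9885 and 1.53 CPM in young cells, and at 48 h at 1.402, 1.15, 1.89, 0.838 and 1.74 CPM. Its larger step was the later one: -1.76 in old and -1.47 in young cells by 6 h, then -2.85 and -2.74 by 18 h on the log2 scale, all called and with no overlap. Against NSC medium at 6 h, in old doxycycline cells, E2f1 was 2.23-fold lower, beside 3.46-fold in old untreated cells against 18 h. At 48 h its libraries overlapped those at 18 h in both ages and no change was called (log2 fold change 0.08, SE 0.20, edgeR adjusted p = 0.766 in old cells; log2 fold change 0.02, SE 0.23, edgeR adjusted p = 0.952 in young cells). Per kb, Rb1 stood at 1.05 ± 0.0769 times E2f1 in old and 1.21 ± 0.0506 times in young NSCs, and at 47.99 ± 10.6 and 40.1 ± 10.9 times at 18 h of differentiation (mean ± SD).

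Over the later steps, 67.7% of all genes tested were called in old and 66.5% in young cells from 6 to 18 h, where 9 of the 10 genes were called in each age, all but Cdk6. From 18 to 48 h the background was 56.5% in old and 56.9% in young cells, with 7 of the 10 genes called in each. With animals as blocks 8 and 9 were called, against 59.2% and 62.6%. Between 18 h of differentiation and 18 h in NSC medium, the one pair of untreated groups with the same stated time, 10 genes were called in old (background 82%) and 9 in young cells (background 82.6%), Cdk4 being the exception at -0.05 (edgeR adjusted p = 0.276). At that point Ccnd1 was 69.7-fold lower in old and 65.3-fold lower in young cells, E2f1 24.8-fold and 18.6-fold lower, and Rb1 1.77-fold and 1.69-fold higher. For this response the edgeR interaction of medium and age called 0 of the 10 genes, with 0 at an unadjusted p under 0.05 and 0 by DESeq2, against 0.818% of all genes. Of all 17726 genes tested, 2768 had an unadjusted p under 0.05. The interval of the difference for Ccnd2, from the fit without animals as blocks, was -0.78 to 0.03 on the log2 scale.

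**Figure D2:**
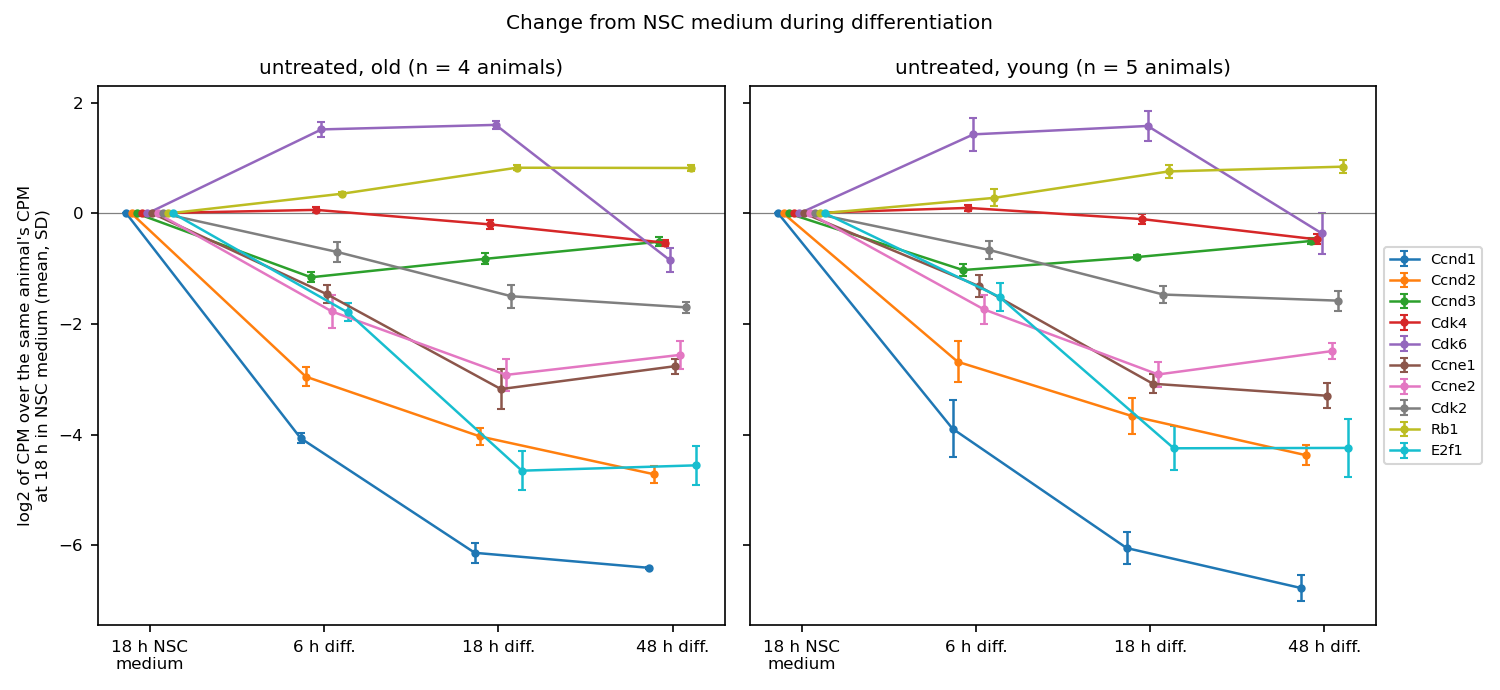
Change of each gene at 6, 18 and 48 h of differentiation (x axis) as the log2 of its CPM over the same untreated animal's CPM at 18 h in NSC medium (y axis); points are means and bars SDs of 4 old animals on the left and 5 young animals on the right. Ccnd1 runs lowest throughout, E2f1 and Ccnd2 come next from 18 h on, Cdk6 rises and then drops by 48 h, and Rb1 runs above 0.

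Genes up and down the same pathway were counted from lists, and their order in time differed from list to list. Of 24 S phase genes known as E2F targets, 22 fell and 2 rose in old cells at 6 h (median log2 fold change -0.97) and 19 fell and 2 rose in young cells (median -0.83), where the median of all genes was 0.02 and 0.03. These values too are against 18 h in NSC medium, where 21 of the 24 stood higher than at 6 h in old doxycycline cells; against 6 h in NSC medium those cells gave 15 lower, 4 higher and 5 not called (median -0.38, all genes 0.04). The 2 that rose in each age were Rrm1, a subunit of ribonucleotide reductase (0.18 ± 0.07 in old and 0.26 ± 0.08 in young cells, log2 ± SE), and Ccna2, cyclin A2 (0.38 ± 0.11 and 0.54 ± 0.11). The largest changes were in Ung, which removes uracil from DNA (-3.77 ± 0.07 and -3.44 ± 0.11), in the licensing factors Cdc6 (-2.58 ± 0.09 and -2.42 ± 0.14) and Cdt1 (-1.87 ± 0.08 and -1.55 ± 0.09), and in the helicase subunit Mcm3 (-1.82 ± 0.07 and -1.64 ± 0.09). By 18 h all 24 had fallen below 6 h in both ages (medians -2.72 in old and -2.55 in young cells), among them Rrm2, the other subunit of ribonucleotide reductase (-4.67 ± 0.05 and -4.39 ± 0.14), and Ccna2 (-4.57 ± 0.08 and -4.25 ± 0.09). From 18 to 48 h 13 rose and 2 fell in old cells and 11 rose and 3 fell in young cells, including the replication clamp gene Pcna (0.51 ± 0.03 and 0.49 ± 0.04).

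Mitotic genes did not follow the G1 cyclins at 6 h. Of 11 mitotic cyclins, kinases and partners, 6 rose and 0 fell in old cells and 10 rose and 0 fell in young cells, with medians of 0.40 and 0.58. Against NSC medium at 6 h, in old doxycycline cells, 6 were higher and 0 lower (median 0.39). With animals as blocks 10 and 11 were higher and 0 lower, where 78.7% of all genes in old and 77.4% in young cells were called. Ccnb2, a cyclin of mitosis, was at 1.34 ± 0.13 in old and 1.54 ± 0.15 in young cells, and Ccnb1 at 0.63 ± 0.15 and 0.81 ± 0.17 (log2 ± SE). By 18 h all 11 had fallen in both ages, with medians of -6.03 in old and -5.45 in young cells, and Plk1, a kinase of mitotic entry, was at -6.93 ± 0.19 and -6.13 ± 0.20.

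The Cdk inhibitors, 7 genes, split at 6 h into 4 higher and 3 lower in each age. Cdkn1b (p27) was at 0.53 ± 0.04 in old and 0.53 ± 0.06 in young cells, Cdkn2d at 0.58 ± 0.07 and 0.75 ± 0.06. Cdkn2b (p15) was lower in both ages, at -0.98 ± 0.10 in young cells. Cdkn1c (p57) had the largest of these changes, at 3.23 ± 0.22 in old and 2.99 ± 0.17 in young cells. By 18 h all 7 had fallen below 6 h in both ages, and against NSC medium at 18 h 2 were higher and 5 lower; Cdkn1a (p21) was among the lower at -1.84 ± 0.09 in old and -1.52 ± 0.05 in young cells. In old doxycycline cells 4 were higher and 2 lower at 6 h against NSC medium at 6 h.

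Among 11 genes of the other E2F factors, their DP partners and the pocket proteins related to Rb1, 2 rose and 8 fell at 6 h in each age. Rbl2, the pocket protein p130 of quiescent cells, was the one with the largest rise (1.37 ± 0.04 in old and 1.34 ± 0.05 in young cells), against falls of E2f3 (-1.23 ± 0.06 and -1.12 ± 0.05) and Tfdp1 (-1.08 ± 0.04 and -1.05 ± 0.07). By 18 h 1 rose and 7 fell against 6 h in each age, with E2f7, a repressor E2F, at -6.03 ± 0.17 and -5.22 ± 0.23 and the pocket protein gene Rbl1 (p107) at -2.25 ± 0.06 and -2.18 ± 0.06. Of 14 regulators of cyclin and kinase activity or turnover, 3 rose and 9 fell in old cells at 6 h and 3 rose and 8 fell in young cells, among them Skp2, which targets p27 for degradation (-1.06 ± 0.08 in old cells). Against NSC medium at 6 h, in old doxycycline cells, 3 genes of the E2F list were higher and 5 lower, and 4 of the regulators were higher and 9 lower. The phosphatase gene Cdc25b rose (0.76 ± 0.09 in old and 0.94 ± 0.09 in young cells).

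The 3 D cyclins fell by different amounts, and their shares of the summed level differed between stages. Per kb of exon, Ccnd1 was 73.65 ± 0.647% of the D cyclin level in old and 71.6 ± 0.976% in young untreated NSCs (mean ± SD, n = 4 and 5). Its share was 54.0 ± 0.798% and 50.5 ± 3.88% at 6 h of differentiation, 32.6 ± 1.705% and 28.6 ± 0.8205% at 18 h, and 33.4 ± 1.41% and 25.05 ± 1.67% at 48 h. Ccnd3 made 1.09 ± 0.0944% and 0.888 ± 0.0496% of it in NSC medium and 29.4 ± 1.855% and 24.2 ± 2.502% at 48 h. Ccnd2 was the largest share at 18 h, with 48.1 ± 1.66% and 57.5 ± 2.23%, and at 48 h, with 37.1 ± 2.545% and 50.8 ± 1.58%. These shares are given as a description with no test.

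The summed D cyclin level per kb stood at 5.61 ± 0.533 times that of Cdk4 plus Cdk6 in old and 6.74 ± 0.401 times in young NSCs, and at 0.209 ± 0.0193 and 0.244 ± 0.0237 times at 48 h of differentiation. The ratio was above 1 in both untreated NSC groups and below 1 in all 6 untreated differentiation groups. Cdk4 exceeded Cdk6 per kb by 150.1 ± 16.2 times in old and 114 ± 17.4 times in young NSCs, by 43.3 ± 6.85 and 35.3 ± 4.36 times at 18 h of differentiation, and by 187 ± 25.5 and 105.5 ± 14.6 times at 48 h. Ccne1 and Ccne2 were near 1 to 1 per kb in NSC medium (1.06 ± 0.0846 in old and 1.06 ± 0.07465 in young cells) and at 0.9175 ± 0.0559 and 0.605 ± 0.0728 at 48 h.

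**Figure D3:**
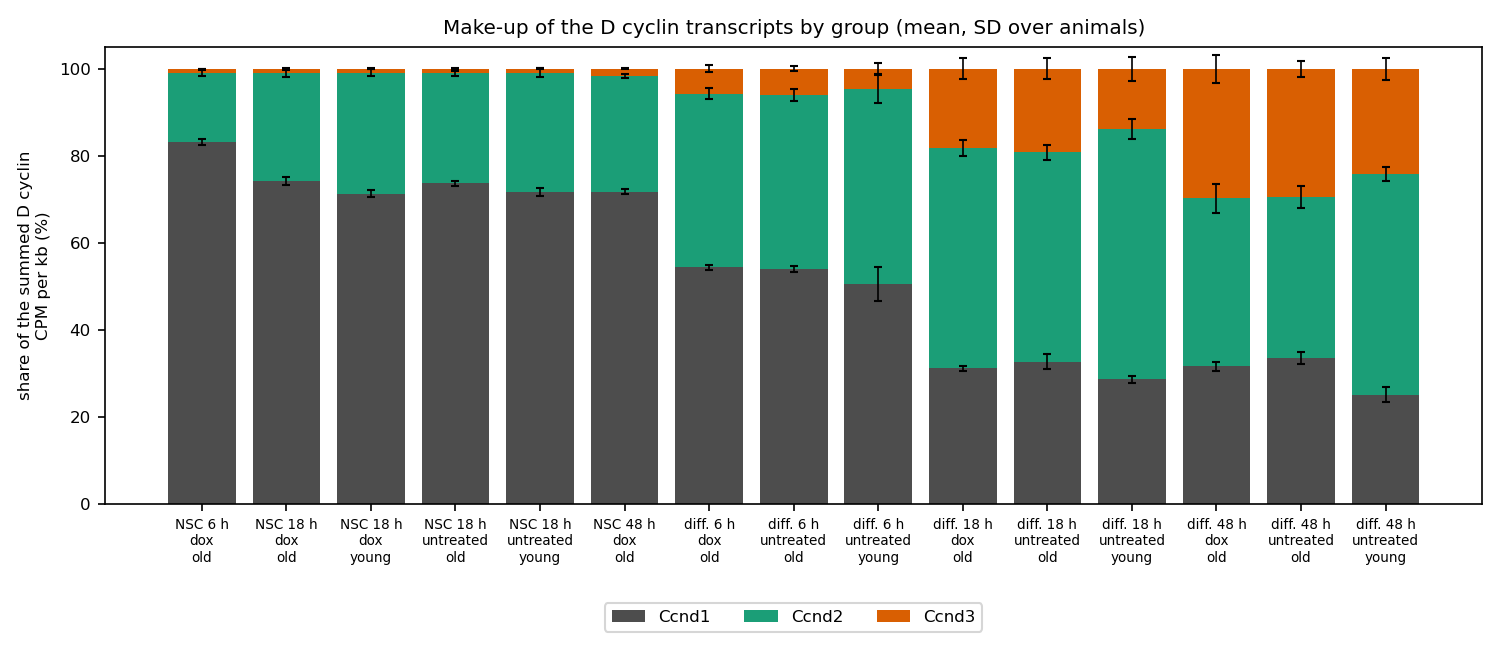
Stacked shares of Ccnd1, Ccnd2 and Ccnd3 in the summed D cyclin level per kb of exon (percent, y axis) in each of the 15 groups (x axis); segments are means over animals and the bar at the top of each segment is the SD of that share. The Ccnd1 share is highest at 6 h in NSC medium (83.15 ± 0.605%) and lowest in young untreated cells at 48 h of differentiation (25.05 ± 1.67%), and the Ccnd2 share is lower in old than in young cells at 48 h (37.1 ± 2.545% and 50.8 ± 1.58%).

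The next question is how old and young untreated cells compare. Ccnd2 was lower in old cells at all 4 stages by its mean and was called at the first and the last. At 18 h in NSC medium all 4 old libraries lay below all 5 young ones (log2 fold change -0.32, SE 0.07, edgeR adjusted p = 0.0158). So they did at 48 h of differentiation (log2 fold change -0.64, SE 0.14, edgeR adjusted p = 0.0279). Ccnd2 was the only one of the 10 genes called in NSC medium, against 5.95% of all genes tested, a share close to that background, and the call was lost without old animal 4 (edgeR adjusted p = 0.056). Cdk4 was above the young range in all 4 old libraries in NSC medium, by a small step that was not called (log2 fold change 0.07, SE 0.03, edgeR adjusted p = 0.207). There 5 of the 10 genes had an unadjusted p under 0.05, beside 3848 of the 16701 genes tested. Without young animal 5 the number called was 2. DESeq2 also called 2, with 1088 of all 15366 genes it tested higher and 928 lower. At 6 and 18 h of differentiation the old and young libraries of Ccnd2 overlapped and it was not called (log2 fold change -0.61, SE 0.22, edgeR adjusted p = 0.259 at 6 h; log2 fold change -0.68, SE 0.21, edgeR adjusted p = 0.118 at 18 h). None of the 10 genes was called at 6 h, where 1.43% of all genes were, and DESeq2 called 0. At 6 h 1 of the 10 had an unadjusted p under 0.05, beside 2395 of 17192 genes tested. None was called at 18 h either, against 5.19%, and without old animal 2 edgeR called 1. At 18 h 2 of the 10 had an unadjusted p under 0.05, beside 3568 of 16943 genes tested. DESeq2 called 2 there, Ccnd2 and Cdk6, with 780 of all 15775 genes it tested higher and 804 lower.

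At 48 h of differentiation 3 of the 10 genes were called, against 10.6% of all genes. Cdk6 had 9.31, 9.78, 7.33 and 7.48 CPM in old cells and 15.2, 13.5, 18.0, 11.9 and 15.7 CPM in young cells (log2 fold change -0.80, SE 0.13, edgeR adjusted p = 0.00661), and every old library lay below every young one. Ccne1 had 6.07, 6.825, 7.24 and 6.11 CPM in old cells and 3.965, 4.74, 4.68, 3.61 and 5.05 CPM in young cells (log2 fold change 0.59, SE 0.10, edgeR adjusted p = 0.00699), and every old library lay above every young one. Its partner in function Ccne2 did not show this, with a log2 fold change of -0.01 and an interval of -0.15 to 0.12. The Ccnd2 call at 48 h was lost without the filter on low counts (edgeR adjusted p = 0.0556) and when old animal 2, 3 or 4 or young animal 1, 3 or 5 was left out (0.0523 to 0.0754). Oligodendrocyte lineage markers summed to 5478 to 6529 CPM in old and 3894 to 5110 CPM in young cells at 48 h, with no overlap, and their part in these calls was not tested. Sex as a term left the same 4 calls over the 4 stages.

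Of the lists, the Cdk inhibitors held age calls at every stage: 2 higher and 1 lower in NSC medium, then 1 and 2, 2 and 2, and 2 and 1 at 6, 18 and 48 h of differentiation. Cdkn2a, which encodes p16 and p19ARF, was lower in old cells at all 4 stages (-0.37 ± 0.08, -0.44 ± 0.06, -0.34 ± 0.05 and -0.33 ± 0.05, log2 ± SE), and Cdkn1c was higher in old cells in differentiation (1.25 ± 0.20, 1.04 ± 0.16 and 1.03 ± 0.17). No S phase gene was called in NSC medium, at 6 h or at 18 h (9, 1 and 4 of 24 had an unadjusted p under 0.05, and DESeq2 called 3, 0 and 0), and 2 were lower in old cells at 48 h. No mitotic gene was called at any of the 4 stages (3, 1, 4 and 1 of 11 at an unadjusted p under 0.05, and 2, 0, 0 and 0 by DESeq2). Of all genes tested, 3848 of 16701, 2395 of 17192, 3568 of 16943 and 4650 of 17043 had an unadjusted p under 0.05 at these stages. At 48 h, where the age calls of the cyclins and Cdk6 stand, the summed level of 10 oligodendrocyte lineage markers was 5478 to 6529 CPM in old and 3894 to 5110 CPM in young libraries (1 higher and 1 lower of 10 called). That of 10 neural stem cell and astrocyte markers was 9337 to 10403 CPM in old and 10449 to 11331 CPM in young libraries (2 lower of 10). The part of these markers in the age differences was not tested.

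**Figure D4:**
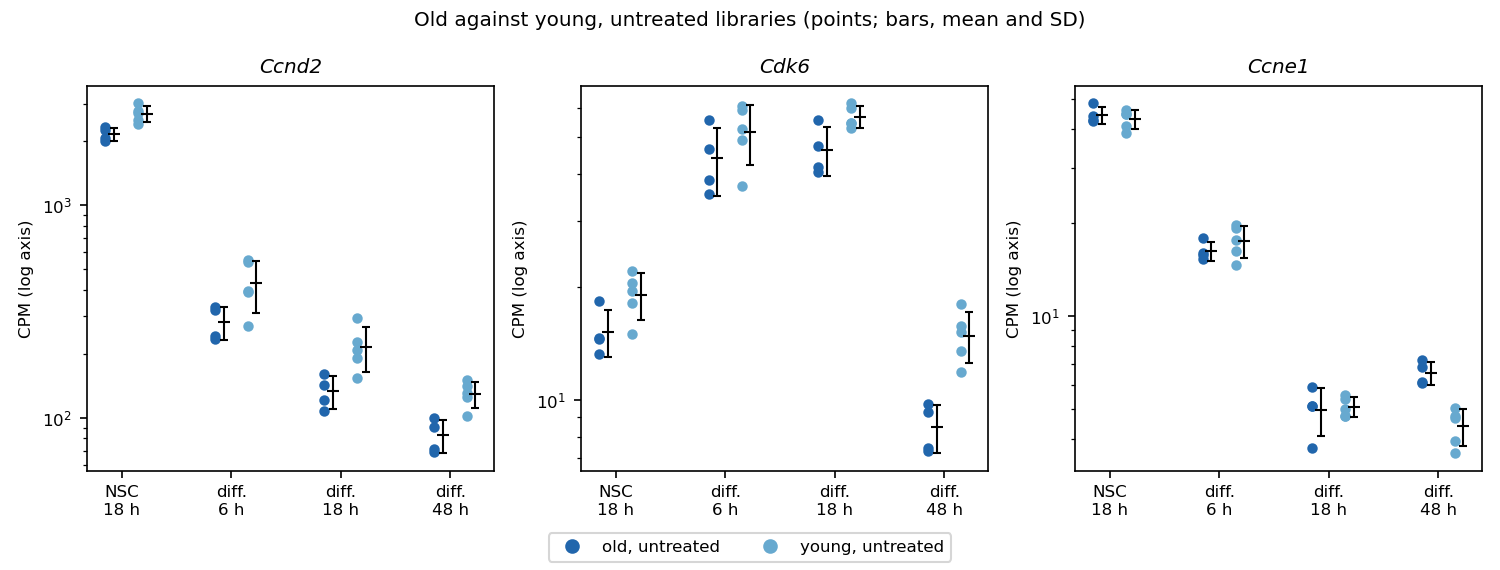
Levels of Ccnd2, Cdk6 and Ccne1 (CPM, log axis) in untreated libraries at 4 stages, old left of young at each; 1 point is 1 animal and the bars give the mean and SD. The old and young points do not overlap for Ccnd2 in NSC medium and at 48 h of differentiation, nor for Cdk6 and Ccne1 at 48 h.

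The third question is whether doxycycline moved these genes. With animals taken into account, Ccne1 and Ccne2 were slightly lower with doxycycline at 18 h in NSC medium in both ages, as was Cdk2. Ccnd2 was slightly higher in old cells at 6 and 18 h of differentiation. The calls of Cdk2 and of Ccnd2 were lost when single animals were left out, and no change was large. Ccnd1 in NSC medium had 3392, 2917, 3245 and 3008 CPM in old doxycycline cells and 3428, 2902, 3281 and 3005 CPM in old untreated cells of the same 4 animals. Within these animals the log2 ratio ran from -0.02 to 0.01. In the fit without animals the interval of the log2 fold change was -0.13 to 0.13. None of the 10 genes was called in any of the 5 settings by the fit without animals (backgrounds 0.018% in old and 0.0361% in young cells at 18 h in NSC medium, and 0.0294%, 0.0118% and 0.0296% in old cells at 6, 18 and 48 h of differentiation). In these settings 1, 3, 1, 1 and 2 of the 10 genes had an unadjusted p under 0.05. Of all genes tested, 1466 of 16652, 2403 of 16621, 1507 of 17033, 1137 of 16986 and 1492 of 16889 did. DESeq2 called 0, 1, 0, 0 and 0 of the 10 genes. The 1 was Ccnd3 in young cells, where DESeq2 called 152 of all 14165 genes it tested higher and 84 lower. The same animals gave both libraries, so each comparison was also fitted with animals as blocks, where the backgrounds were 11.2%, 13.6%, 3.67%, 0.883% and 4.15%. That fit called 4, 5, 3, 2 and 0 of the 10 genes, all with log2 fold changes of 0.30 or less in size. Leaving out 1 animal moved these counts to 2 without old animal 1 or 4 in old and 2 without young animal 4 in young cells in NSC medium. At 18 h of differentiation it was 1 without old animal 1 or 3, and at 6 h the 3 calls were all lost without old animal 1. In young cells without young animal 5, the fit without blocks called 2.

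Within animals, the E cyclins and Cdk2 were lower with doxycycline in NSC medium. Ccne1 had 36.0, 42.6, 35.4 and 38.1 CPM in old doxycycline cells and 42.4, 48.5, 42.8 and 44.3 CPM in the untreated cells of the same animals, and 40.3, 41.4, 40.7, 38.9 and 28.8 CPM in young doxycycline cells and 44.7, 44.9, 46.2, 41.0 and 38.9 CPM in young untreated cells. The groups overlapped, but all 4 old and all 5 young animals were lower (log2 fold change -0.22, SE 0.03, edgeR adjusted p = 2.36e-05 in old and -0.19, SE 0.04, edgeR adjusted p = 0.0109 in young cells, with animals as blocks). Ccne2 was also lower in all 9 animals (-0.18 in old, edgeR adjusted p = 1.21e-04, and -0.24 in young cells, edgeR adjusted p = 2.79e-04), and so was Cdk2 (-0.09 in old, edgeR adjusted p = 0.0477, and -0.13 in young cells, edgeR adjusted p = 0.0124). The Cdk2 call was lost in old cells without old animal 1, 2 or 4 (edgeR adjusted p = 0.124, 0.319 and 0.0698) and in young cells without young animal 3 or 4 (0.0793 and 0.0502). E2f1 was called in old (-0.15, edgeR adjusted p = 0.0213) and not in young cells (-0.05, edgeR adjusted p = 0.459). Cdk6 was called in young (-0.17, edgeR adjusted p = 0.0325) and not in old cells (0.05, edgeR adjusted p = 0.724). The E2f1 call was lost without old animal 1 or 4 (edgeR adjusted p = 0.132 and 0.214) and the Cdk6 call without young animal 1, 2 or 4 (0.148, 0.147 and 0.108). Neither gene's response was shown to differ between ages by the interaction of doxycycline and age.

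Of the 10 genes, Ccnd3 was the one whose doxycycline response differed between ages with animals as blocks. It had 84.8, 87.3, 88.2, 90.9 and 87.9 CPM in young doxycycline cells and 80.2, 83.1, 79.8, 79.5 and 79.95 CPM in young untreated cells, higher in all 5 animals with no overlap (log2 fold change 0.13, SE 0.03, edgeR adjusted p = 0.0106), a call lost without young animal 4 (edgeR adjusted p = 0.0768). Old doxycycline cells had 79.3, 85.0, 86.35 and 79.8 CPM and old untreated cells 86.1, 90.6, 87.6 and 80.9 CPM, lower in all 4 animals but not called (-0.05, edgeR adjusted p = 0.196). The difference, old response minus young response, was -0.18 (SE 0.04, edgeR adjusted p = 0.0211, background 3.43%) with animals as blocks. It was not called without them (edgeR adjusted p = 0.433, 0 of 10 called, 1 at an unadjusted p under 0.05, 0 by DESeq2, background 0%). Of all 17177 genes tested without blocks, 1516 had an unadjusted p under 0.05.

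In old cells in differentiation, the calls among the D cyclins were upwards with doxycycline. At 6 h Ccnd1 had 249.2, 182, 240.5 and 175 CPM in old doxycycline cells and 209, 167, 212 and 168 CPM in old untreated cells, higher in all 4 animals (0.15, edgeR adjusted p = 0.0122, with animals as blocks). Ccnd2 was higher in all 4 as well (0.14, edgeR adjusted p = 0.0273), while Ccne2 was lower in all 4 (-0.26, edgeR adjusted p = 0.00889). These 3 calls were all lost when old animal 1 was left out, those of Ccnd1 and Ccnd2 without old animal 2, and that of Ccne2 without old animal 4. At 18 h Ccnd2 had 188, 136, 167 and 124 CPM in old doxycycline cells and 161, 122, 143 and 107 CPM in old untreated cells (0.19, edgeR adjusted p = 0.0078), a call lost without old animal 1 or 3 (edgeR adjusted p = 0.147 and 0.0565). Cdk6 had 34.4, 40.9, 36.1 and 39.2 CPM in old doxycycline cells and 40.4, 55.6, 41.8 and 47.4 CPM in old untreated cells (-0.30, edgeR adjusted p = 0.00678). Both had the same sign in all 4 animals at 48 h, when neither was called (0.08 and -0.25, edgeR adjusted p = 0.18 and 0.119). Ccne1 at 48 h was higher with doxycycline in all 4 animals, the other direction from NSC medium, and not called (0.23, edgeR adjusted p = 0.0663, with animals as blocks). The responses at 18 h in differentiation and in NSC medium were not shown to differ for any of the 10 genes (interaction, 0 called by edgeR, 0 at an unadjusted p under 0.05, 0 by DESeq2, background 0.00566%). Of all 17657 genes tested for this interaction, 1768 had an unadjusted p under 0.05.

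In NSC medium the S phase and mitotic lists were lower with doxycycline, as the E cyclins were. With animals as blocks, 20 of 24 S phase genes were lower with doxycycline in old and 24 of 24 in young cells at 18 h in NSC medium (medians -0.14 and -0.21, all genes 0.00), and 10 and 11 of 11 mitotic genes (medians -0.23 and -0.32). Examples are Rrm2 (-0.21 ± 0.02 in old and -0.30 ± 0.03 in young cells, log2 ± SE) and Ccnb1 (-0.25 ± 0.02 and -0.37 ± 0.04). At 6 h of differentiation 11 and 9 were lower, at 18 h 0 and 0, and at 48 h 0 and 1. Without animals in the fit no gene of either list was called in these settings. For the S phase list 3, 11, 11, 1 and 2 of 24 had an unadjusted p under 0.05 and DESeq2 called 0, 1, 0, 0 and 0. For the mitotic list it was 0, 1, 0, 1 and 2 of 11, with 0 by DESeq2. The counts of all genes at an unadjusted p under 0.05 are those given above for the same settings. In old cells at 18 h in NSC medium, features that overlap ribosomal RNA took 1.70 to 2.05% of counts with doxycycline and 0.559 to 1.645% without, and the part of this in these small changes was not tested.

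**Figure D5:**
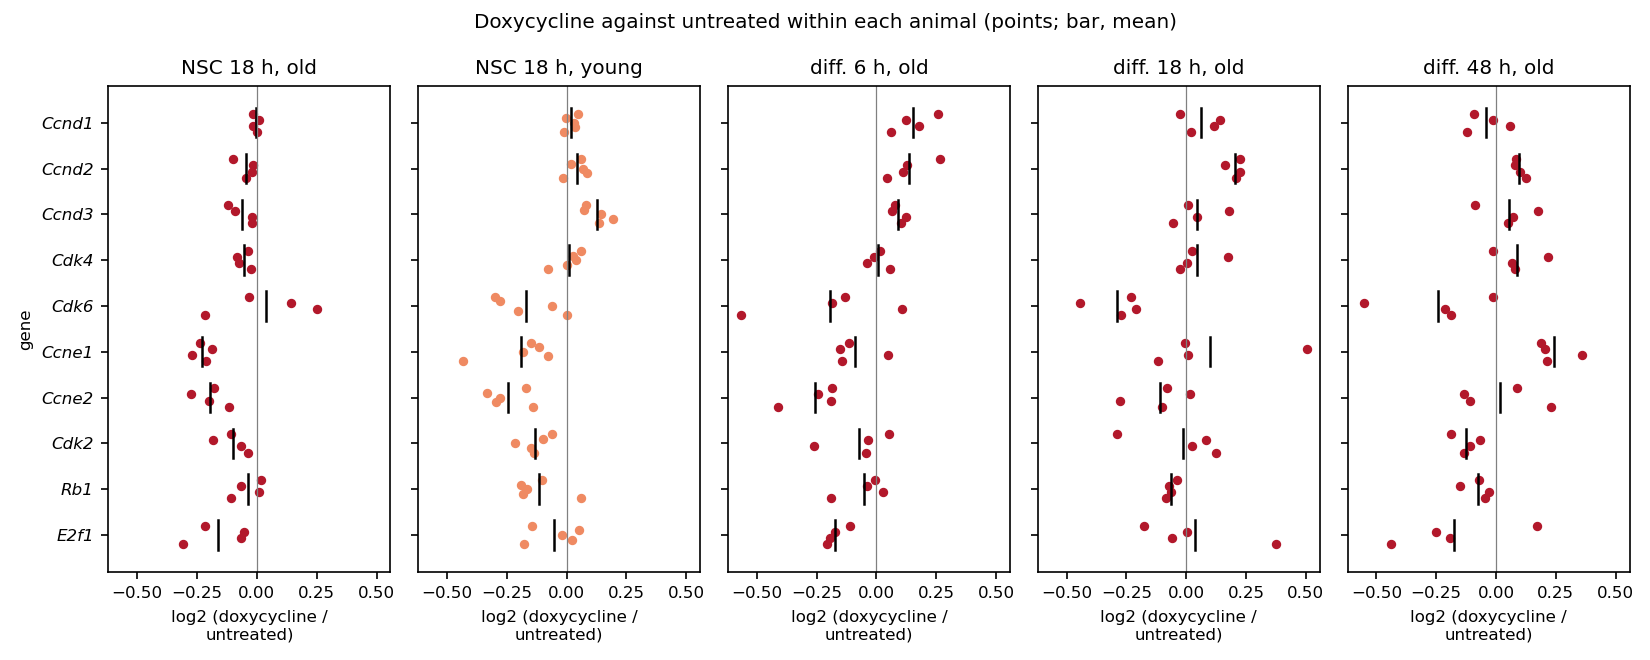
Within-animal log2 ratio of doxycycline over untreated CPM (x axis) for each of the 10 genes (y axis) in 5 settings; 1 point is 1 animal and the black bar is the mean. Ccne1, Ccne2 and Cdk2 lie below 0 in all old and all young animals at 18 h in NSC medium, and Ccnd2 lies above 0 in all 4 old animals at 6, 18 and 48 h of differentiation.

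The old doxycycline cells are the only ones with NSC medium groups at 6, 18 and 48 h, and the G1 genes changed between these times. Hours in growth medium, hours of doxycycline and hours after plating cannot be told apart there. From 6 to 18 h 9 of the 10 genes rose, Rb1 being the exception, where 30.6% of all genes tested rose and 61.3% changed in either direction. Ccne1 stood at 10.6, 14.95, 10.7 and 12.9 CPM at 6 h, 36.0, 42.6, 35.4 and 38.1 CPM at 18 h and 44.2, 40.9, 39.7 and 36.4 CPM at 48 h, the largest of these rises by fold (log2 fold change 1.64, SE 0.11, edgeR adjusted p = 1.45e-06). Ccnd2 stood at 985, 961, 887 and 979.7 CPM at 6 h, 2164, 2051, 2213 and 1936 CPM at 18 h and 1670, 1498, 1561 and 1436 CPM at 48 h (log2 fold change 1.15, SE 0.05, edgeR adjusted p = 6.43e-08 for 18 against 6 h). Every library at 18 h was above every library at 6 h for all 9 genes that rose. How many of all genes separated in this way was not counted. The call of Cdk4 was lost without old animal 3 (edgeR adjusted p = 0.0594).

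From 18 to 48 h in NSC medium 5 of the 10 genes were called, against 52.3% of all genes. Ccnd1 and Ccnd2 fell (-0.58 and -0.42 on the log2 scale) and Cdk6, Cdk2 and Rb1 rose (1.18, 0.25 and 0.19). Cdk6 stood at 8.09, 7.57, 8.41 and 7.30 CPM at 6 h, 13.02, 20.3, 17.3 and 12.6 CPM at 18 h and 35.4, 37.6, 37.6 and 30.65 CPM at 48 h, with no overlap between neighbouring times. Mitotic genes rose later: 1 of 11 rose and 1 fell from 6 to 18 h, while 21 of 24 S phase genes rose, and 11 of 11 mitotic genes rose from 18 to 48 h (median 0.76), with 6 S phase genes higher and 1 lower.

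Old doxycycline cells in differentiation can be set against NSC medium of the same stated hour, and at 6 h Ccne1 and Cdk2 then gave other values than the untreated cells set against 18 h. At 6 h Ccne1 was higher in differentiation, with 16.5, 14.1, 15.75 and 14.4 CPM in differentiation against 10.6, 14.95, 10.7 and 12.9 CPM in NSC medium (log2 fold change 0.34, SE 0.11, edgeR adjusted p = 0.0106). The libraries overlapped, 3 of 4 animals were higher, and the call was lost without old animal 1 or 3 (edgeR adjusted p = 0.0932 and 0.0653). Cdk2 was not called at 6 h (log2 fold change -0.09, SE 0.07, edgeR adjusted p = 0.248), and the other 8 genes were (background 80.7%). On the log2 scale Ccnd1 was at -3.53, Ccnd2 at -1.57, Ccnd3 at -0.43, Ccne2 at -1.02 and E2f1 at -1.12, all lower. Cdk4 was at 0.27, Cdk6 at 2.33 and Rb1 at 0.42, all higher. At 18 h 9 of 10 genes were called, all but Cdk4 (background 81.5%), and at 48 h all 10 (background 76.9%). At 48 h Cdk6 was lower in differentiation (-2.25), with 9.235, 6.67, 6.315 and 6.56 CPM in differentiation against 35.4, 37.6, 37.6 and 30.65 CPM in NSC medium, whereas at 6 and 18 h it was higher (2.33 and 1.29). Ccnd1 was lower at each time, with log2 fold changes of -3.53, -6.02 and -5.80. Whether the stated hours in the 2 media count from the same event cannot be told from the labels, and time in culture cannot be told apart from medium where they differ.

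Across the 15 group means (log2(CPM + 1)), which share animals, 7 of the 10 genes ran close together or opposite, and 3 stood aside. Ccnd1 correlated with Ccnd2, E2f1 and Ccne2 at Pearson r = 0.98, 0.98 and 0.97 and with Rb1 at -0.97, but with Cdk6 at -0.18, with Cdk4 at 0.60 and with Ccnd3 at 0.65. Among 11822 genes averaging 5 CPM or more, those most like Ccnd1 were Adamts14 (r = 0.999), Synj2 (0.998) and Kcng1 (0.997). Those most like E2f1 were Cdt1 (0.998), Hells (0.998) and Mcm3 (0.997), those most like Ccnd3 were Cbx6 (0.987), Ptprj (0.978) and Lrrc75a (0.972), and those most like Ccnd2 were Gm43126 (above 0.999), Nptn (0.994) and Ctsc (0.994). Gm43126 is annotated on the opposite strand over 994 bases of Ccnd2, and LTO1 shares 1771 bases with Ccnd1 on the opposite strand (r = 0.991 with Ccnd1, up to 1231 CPM). The library kit keeps strand, but whether the counting used it is not given in the sources used here, and without it reads of such pairs cannot be told apart. Genes on the opposite strand also overlap Ccnd3 (Bysl), Cdk4 (Tspan31), Cdk6 (Gm17590), Ccne2 (Ints8), Cdk2 (Pmel) and Rb1 (Rcbtb2 and Lpar6), and Gm17233 overlaps Rb1 on its own strand.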

How the data were processed

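RNA of 65 libraries from 9 animals (4 old and 5 young) was sequenced after a stranded mRNA preparation, per the labels' protocols. The authors' deposited table holds raw counts per gene with a Length column in bases, taken as the exon length; a second deposited table holds log2-scale variance-stabilized values, used only as an alternative. Per the submitters' processing notes, Trim Galore 0.6.6, STAR 2.7.10b, SAMtools, Subread, DESeq2 1.40.1 and mm10 were used; the strand setting of the counting is not given in the sources used here. Of 31057 features, 30934 were named through GENCODE M21 and 123 were not. Values of 2 (75644) outnumbered values of 1 (19963) in the counts. The reason was not tested, and the lowest levels are to be read with care. Totals were 56.5 to 116.8 M counts, and the lowest count of the 10 genes was 56.

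Levels are CPM after TMM scaling over all libraries. Each comparison was fitted on its own groups with edgeR 4.0.16 (R 4.3.3; filterByExpr with a minimum count of 10, TMM, robust quasi-likelihood test) and adjusted over all genes tested by Benjamini-Hochberg at 0.05; the SE is the log2 fold change divided by the square root of F, and intervals are 95%. Alternatives were DESeq2 1.42.0, RLE scaling, no filter, limma 3.58.1 on the log2 values, animals as blocks, sex as a term and leaving out each animal. The labels tie replicate numbers to animals, and over 11822 genes same-numbered libraries of 2 groups deviated together in all 18 within-age comparisons (lowest correlation 0.23), so the blocked value is given where it changes a call. The edgeR fits with and without animals as blocks, DESeq2 and limma were tried on simulated data. These were modelled on 1 comparison, doxycycline in old cells at 18 h in NSC medium. The interactions, sex as a term and the other steps were not tried in this way. P-values of the fits without blocks measure the spread between animals of 1 culture each. Where groups share animals, these fits treat the libraries of 1 animal as independent. With animals as blocks, P-values measure how far the change within an animal varies between animals.

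Members and gene lists were chosen with earlier results of these data known. From each list at most 4 examples a comparison were to be named, the called genes with the largest log2 fold change and a mean of at least 5 CPM; Rrm1, Ccna2 and the Cdk inhibitors at 6 h, and any gene carried from one comparison or age to another, were named after their values were seen. Genes most like Ccnd1, Ccnd2, Ccnd3 and E2f1 were ranked by Pearson correlation. Counts covering features that overlap on the opposite strand were kept. Correlations, shares and motif matches are descriptions.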

Additional observations from a re-analysis of the deposited data

Results flagged for a closer look

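Among 150 sets of 1 gene in 1 group, 7 held a library whose gap to its nearest neighbour was large for the range of its group by Dixon's criterion, which chance flags in about 1 of 20 groups. Ccnd3 was high in old animal 2 with doxycycline at 6 h in NSC medium (62.1 CPM, the others 55.0 to 55.7) and in young untreated animal 2 at 18 h in NSC medium (83.1 CPM, the others 79.5 to 80.2). Cdk4 was low in young untreated animal 1 at 18 h in NSC medium (483 CPM, the others 497 to 501). Ccne1 was low in young animal 5 with doxycycline at 18 h in NSC medium (28.8 CPM, the others 38.9 to 41.4). Rb1 was high in young untreated animal 5 at 6 h of differentiation (78.4 CPM, the others 68.1 to 70.9). At 48 h of differentiation Cdk6 was high in old animal 1 with doxycycline (9.235 CPM, the others 6.32 to 6.67), and Cdk2 was low in old untreated animal 3 (16.3 CPM, the others 18.0 to 18.4).

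The response of Ccnd3 to doxycycline at 18 h in NSC medium differed between ages when animals were blocks. The old response minus the young one was -0.18 on the log2 scale (SE 0.04, edgeR adjusted p = 0.0211). Ccnd3 was lower with doxycycline in 4 of 4 old animals and higher in 5 of 5 young animals. Without blocks neither edgeR nor DESeq2 called the difference. The young call with blocks was lost without young animal 4 (edgeR adjusted p = 0.0768). Whether the difference with blocks rests on 1 animal was not tested.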

How the results depend on the processing

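Among 135 fold changes of single genes, a part of those fitted, none changed direction under any alternative run. Outside them, E2f1 in young cells from 18 to 48 h of differentiation changed sign. It was at 0.02 without and -0.01 with animals as blocks on the log2 scale, called in neither. Ccne2 between ages at 6 h of differentiation was at -0.00 without and 0.00 with sex as a term, also called in neither. How many others outside the 135 changed sign was not counted. DESeq2 left 134 of the 135 on the same side of the threshold, all but Ccnd3 with doxycycline in young NSCs. Its age calls of Cdk6 in NSC medium and of Ccnd2 and Cdk6 at 18 h of differentiation lie outside the 135. RLE scaling left 135 and no filter 132. Limma on the deposited log2 values left 134, with the young fall of Cdk2 from 18 to 48 h lost (adjusted p = 0.0547). The number of the 10 genes called between ages was 2 with DESeq2 at 18 h in NSC medium and 2 at 18 h of differentiation, against 1 and 0; leaving out 1 animal gave 0 to 2 and 0 to 1. For doxycycline in young NSCs DESeq2 called 1 and leaving out 1 animal 0 to 2, against 0.

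With animals as a replicate block, the calls for doxycycline were 4 in old and 5 in young cells in NSC medium, 3 and 2 in old cells at 6 and 18 h of differentiation, and 1 for the interaction with age, against 0 in each without the block; the cause was not tested. Leaving out 1 animal from the blocked fits gave 2 to 4, 2 to 6, 0 to 3 and 1 to 2. In the other comparisons the block added calls only from 18 to 48 h of differentiation, Ccne1 and Rb1 in young and Ccnd1 in old cells. Leaving out an animal, at fewer samples, also lost the small old rise of Cdk4 at 6 h (edgeR adjusted p of 0.0686 to 0.14). The lowest count of any of the 10 genes in a library was 56, for E2f1; how far depth or the number of animals limits the calls was not tested.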
